A study of Sus scrofa with 6 samples.

Results

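The complement and coagulation genes described here are 35 genes given by name, grouped by role into recognition molecules and proteases of the classical pathway, later complement components, factors of the alternative pathway, receptors, regulators, clotting factors and anticoagulants. They were found by matching symbols to the Ensembl identifiers of the deposited table, in which 31 of the 35 had a row among 35670 genes. CD46, CD55, CD59 and VWF matched no row by symbol and were not analysed here. Of the 31, 29 passed the filter on low counts, while TFPI and SERPIND1 did not. Messenger RNA was counted in pig (Sus scrofa) oviduct, in tissue of the ampulla, the segment where eggs are fertilised. The groups were 3 libraries of the post-ovulatory stage and 3 of the early luteal stage, all from female pigs, with no treatment, breed or age named, and whether replicates came from separate animals is not stated in the sources used here. A positive log2 fold change means a higher level in early luteal tissue, and levels are CPM, counts scaled to a common library total. In whole tissue, fewer cells of a type and less RNA per cell cannot be told apart.

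Complement is a cascade of serum and tissue proteins that tags surfaces and punctures membranes. The classical pathway begins when C1q, a carrier of the proteases C1r and C1s, binds antibody or debris, whereas the alternative pathway turns over continuously on surfaces through factors B and D and properdin. Both converge on C3 and then on C5, from which the membrane attack complex starts with C6 and C7. Host cells and secretions hold regulators that stop the cascade, and in the oviduct these bear on sperm, egg and embryo. Coagulation starts when tissue factor (F3) meets blood and ends with thrombin and cross-linked fibrin, and it is restrained by protein S, thrombomodulin and the tissue factor pathway inhibitors.

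None of the 29 tested genes passed an adjusted p of 0.05 between the stages, as was true of all 17920 genes tested (percent called 0 by edgeR's quasi-likelihood test). The lowest adjusted p among the 29 was 0.571, shared by F3 and PROS1. At an unadjusted p under 0.05 the same test counted 3 of the 29 (10.3%), against 7.11% of all genes tested. F3 and PROS1 were higher in early luteal tissue (3.57% of all genes) and C5 lower (3.54% of all genes). The same 3 genes were those whose stages did not overlap, again 10.3%, against 17.2% of all genes tested (7.61% higher and 9.57% lower in early luteal tissue). These shares are near or below the background and so are no result about the genes as a group. By the other tools, DESeq2 called 1 of the 29, PROS1 (adjusted p = 0.0487, with 1.02% of all genes called), and limma voom called 0 (2 at an unadjusted p under 0.05, with 7.13% of all genes). Of the 29, 22 stood lower in early luteal tissue, where 51.8% of all genes did, and their median log2 fold change was -0.25 against -0.03 over all genes tested. That median was -0.81 without early luteal replicate 1 and -0.03 both when the second post-ovulatory library and when the second early luteal library was left out.

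The range within a stage exceeded the difference of the stage means in 27 of the 29 genes (93.1%), as it did in 93.6% of all genes tested, so this is no trait of these genes. Post-ovulatory replicate 2 was the highest of its stage in 22 of the 29 genes, and post-ovulatory replicate 3 the lowest in 21, where over all genes tested they were so in 35.8% and 26.7%. Early luteal replicate 1 was the highest of its stage in 20 (34.2% of all genes) and early luteal replicate 2 the lowest in 17 (47.4% of all genes). These counts are a description with no test, since all the genes come from the same 6 libraries. The genes together took 0.496%, 0.874% and 0.550% of all counts in post-ovulatory replicates 1, 2 and 3, and 1.07%, 0.407% and 0.478% in early luteal replicates 1, 2 and 3. The early luteal stage thus held both the highest share and the lowest. CLU and C3 weighed heavily in these shares. They made up 50.7% and 23.7% of the genes' counts in early luteal replicate 1, and 48.6% and 13.3% in early luteal replicate 2.

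**Figure D1:**
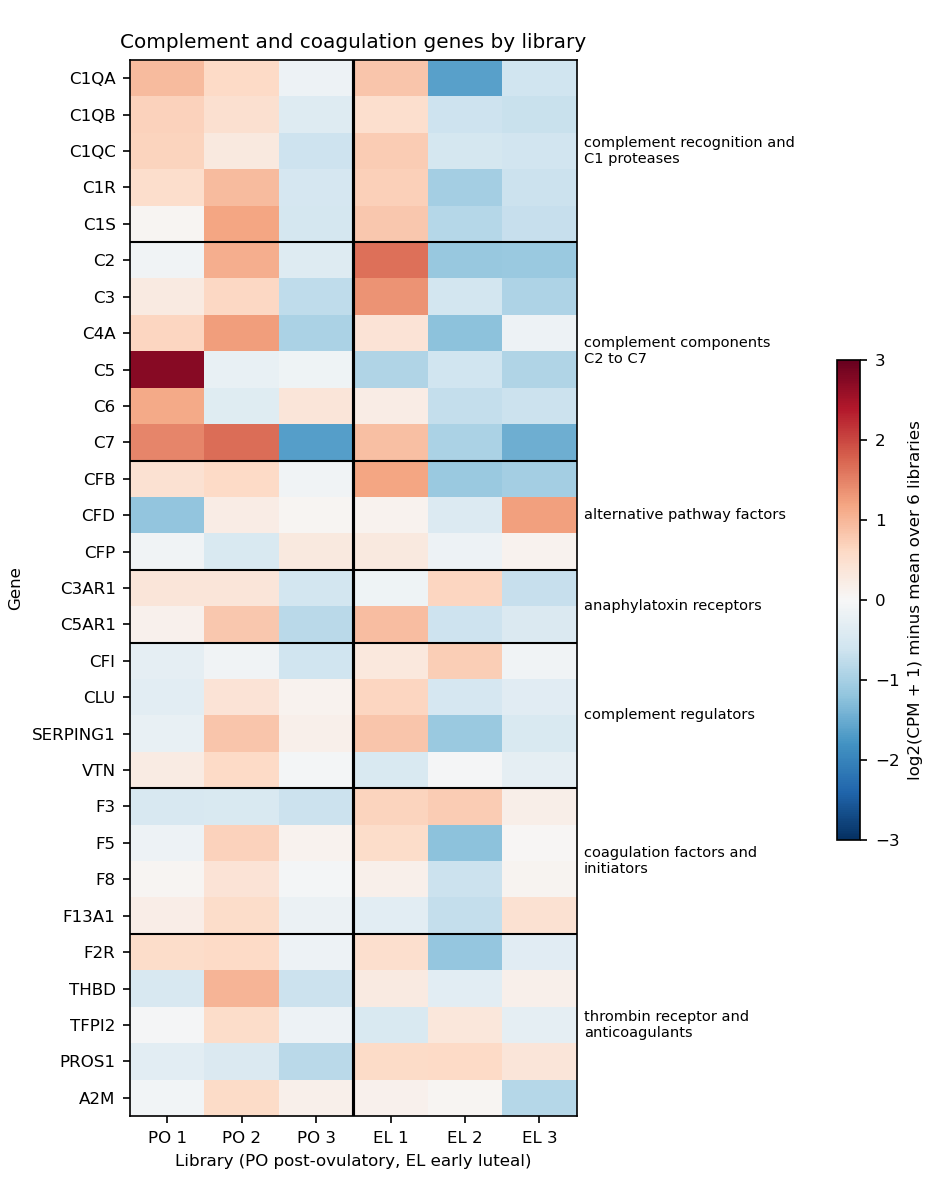
Each row is a gene and each column a library, and colour gives log2(CPM + 1) minus the gene's mean over the 6 libraries, with roles set apart by lines. Most complement rows are high in post-ovulatory replicate 2 and early luteal replicate 1, F3 and PROS1 are high in all 3 early luteal libraries, and C5 is high in post-ovulatory replicate 1.

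Library totals ran from 7370723 to 30954222 counts, and a count of 3, used as the floor of a library, equalled 0.0959 to 0.406 CPM. Early luteal replicate 2 stood apart on the first principal component (176, the others between -51.0 and 2.39). Oviduct epithelium was present in every library, though in uneven amounts of its markers. FOXJ1, a ciliary transcription factor, ranged from 79.3 CPM in early luteal replicate 2 to 654 CPM in post-ovulatory replicate 1. CCDC39, another ciliated marker, was instead highest in early luteal replicate 2 at 368 CPM. Ciliated markers, 7 of 8 with a row, summed to 2431, 1147 and 1902 CPM in post-ovulatory replicates. Their early luteal sums were 1597, 1642 and 1593 CPM. Secretory cells were marked by OVGP1, the oviduct glycoprotein. Its post-ovulatory levels were 7302, 156 and 10688 CPM, a 68.5-fold span, and its early luteal levels 292, 1017.5 and 2356 CPM. OVGP1 was thus lowest in post-ovulatory replicate 2 and early luteal replicate 1, each the highest of its stage in most of the 29 genes. WT1 and KRT7, the other secretory markers with a row, were instead lowest in post-ovulatory replicate 1. Within the early luteal stage WT1 was lowest in replicate 1 (383 CPM), as OVGP1 was, and KRT7 in replicate 2 (363 CPM). The part of secretory epithelium was not tested. Among 7 hepatocyte markers, counted because the liver is the main source of plasma complement, the sum was 18.02 to 40.5 CPM, AHSG had no count in any library and TTR and APOH stayed at or below 0.813 CPM. APOA1, an apolipoprotein, stood at 28.1, 34.6 and 21.0 CPM in post-ovulatory and 16.4, 5.42 and 20.2 CPM in early luteal replicates, lower in every early luteal library. ALB, serum albumin, stood at 0.670, 1.26 and 0.927 CPM and then at 3.67, 4.88 and 5.59 CPM, higher in every early luteal library (adjusted p = 0.594 by edgeR's quasi-likelihood test and 0.0137 by DESeq2).

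The recognition part of the classical pathway stood lower on average in early luteal tissue, but its libraries overlapped in all 5 genes. C1QA, C1QB and C1QC encode the 3 chains of C1q and lie side by side, at chr6:80586259-80589213, chr6:80601680-80606076 and chr6:80592591-80597464 (Sscrofa11.1, RefSeq). C1QA stood at 24.2, 18.7 and 10.7 CPM in post-ovulatory replicates 1, 2 and 3 and at 22.4, 3.25 and 7.58 CPM in the early luteal ones. C1QB stood at 56.7, 48.5 and 26.4 CPM and then at 49.5, 22.4 and 21.6 CPM. C1QC stood at 47.8, 36.6 and 19.0 CPM and then at 51.3, 20.5 and 19.5 CPM. All 3 chains were thus high in post-ovulatory replicates 1 and 2 and early luteal replicate 1, and low in the other 3 libraries. Their log2 fold changes were -0.68 ± 0.67, -0.49 ± 0.43 and -0.18 ± 0.49 (SE), with adjusted p of 0.802 or more by edgeR's quasi-likelihood test. The value of C1QA in early luteal replicate 2 rests on 24 counts.

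C1R and C1S, the proteases that C1q carries, were high in the same 3 libraries. They are neighbours as well, at chr5:63644097-63655149 and chr5:63670309-63681466. C1R stood at 113, 151 and 55.0 CPM in post-ovulatory and 129.8, 37.9 and 49.7 CPM in early luteal replicates (106 ± 48.4 against 72.5 ± 49.99, SD, n = 3). C1S stood at 57.3, 127.8 and 38.01 CPM and then at 97.8, 30.3 and 34.0 CPM. In both genes early luteal replicate 1 lay above 2 of the post-ovulatory libraries and the other early luteal libraries lay below all 3. Summed over these 5 genes, the level was 299, 383 and 149 CPM in post-ovulatory and 351, 114 and 132 CPM in early luteal replicates.

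Macrophages are a source of C1q in many tissues. The summed level of 11 macrophage markers (of 12, 1 having no row) was 115, 148 and 67.7 CPM in post-ovulatory and 130.4, 52.0 and 54.5 CPM in early luteal replicates, with MARCO between 0 and 0.129 CPM. CSF1R, the receptor that macrophages need for survival, stood at 22.3, 36.6 and 14.1 CPM and then at 31.3, 3.12 and 10.4 CPM. The sum and CSF1R were highest in the same 3 libraries as C1q, but this held for only 4 of the 11 markers taken singly. CD163, a scavenger receptor, was higher in every post-ovulatory library (32.6, 13.9 and 15.7 CPM) than in the early luteal ones (13.7, 2.03 and 1.46 CPM). MSR1, another scavenger receptor, was highest in early luteal replicate 2 at 5.28 CPM, and MRC1, the mannose receptor, stood at 6.23 CPM there against 4.70 CPM in early luteal replicate 1. HBB, the beta globin of red blood cells, stood at 92.8, 118 and 0.959 CPM and then at 150.4, 49.99 and 51.3 CPM. It was highest in the same 3 libraries as C1q but lowest by far in post-ovulatory replicate 3, while GP9, a platelet glycoprotein, was lowest in post-ovulatory replicate 2 at 1.89 CPM. Smooth muscle markers, 7 of 7 with a row, summed to 3269, 5630.3 and 2885 CPM and then to 995.5, 6536 and 9347 CPM, lowest in early luteal replicate 1. The part of any of these in the complement values was not tested.

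**Figure D2:**
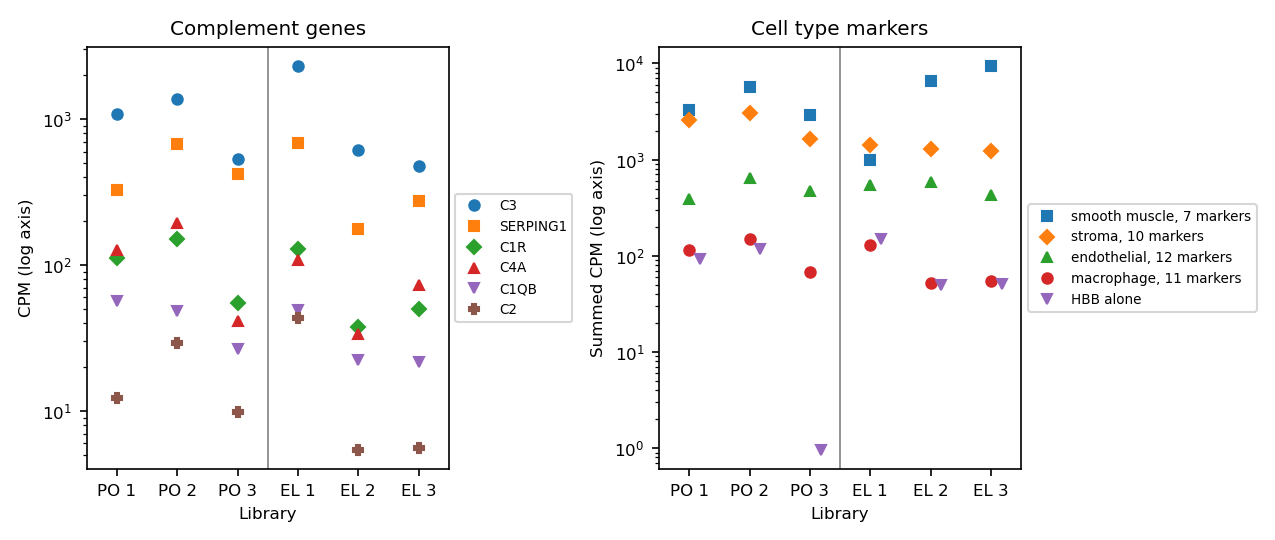
The left panel gives CPM per library for 6 complement genes and the right panel the summed CPM of cell type markers and the CPM of HBB, each on a log axis. In the early luteal stage replicate 1 is highest in the 6 complement genes chosen for display, at 2305.5 CPM for C3. It is so in 15 of the 20 complement genes tested (34.2% of all genes). CFD and CFI, not shown, are highest in other early luteal libraries. Replicate 1 is lowest of its stage in smooth muscle markers, at 995.5 CPM summed.

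C3, the central component that every pathway cleaves, stood at 1077, 1380.3 and 531 CPM in post-ovulatory and 2305.5, 611 and 477 CPM in early luteal replicates. The highest and the lowest level thus both lay in the early luteal stage, whose libraries spanned 4.84-fold. The stage means were 996 ± 430.1 and 1131 ± 1019 CPM (SD, n = 3), a log2 fold change of 0.18 ± 0.63 (SE; edgeR adjusted p = 0.954). Without early luteal replicate 1 the C3 value was -0.85, with the opposite sign. C2, the protease of the classical C3 convertase, stood at 12.2, 29.2 and 9.82 CPM and then at 43.2, 5.42 and 5.59 CPM. Its early luteal libraries spanned 7.96-fold, and its log2 fold change of 0.09 ± 0.84 (SE) became -1.60 without early luteal replicate 1.

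C2 lies next to CFB and near C4A in the major histocompatibility region, at chr7:24020590-24034042, chr7:24034077-24040523 and chr7:24068019-24083060. CFB, the protease of the alternative C3 convertase and the paralogue of C2, stood at 45.6, 50.8 and 31.01 CPM in post-ovulatory and 77.0, 14.8 and 15.9 CPM in early luteal replicates. CFB and C2 thus shared their highest library, early luteal replicate 1, and both had their 2 lowest values in the other early luteal libraries. Without early luteal replicate 1 the log2 fold change of CFB moved from -0.24 to -1.45, with an adjusted p of 0.309 by edgeR. C4A, whose product pairs with C2, stood at 127, 193.5 and 41.3 CPM and then at 108, 33.9 and 72.7 CPM. It was highest in post-ovulatory replicate 2, not in early luteal replicate 1, and its stages overlapped (log2 fold change -0.75 ± 0.58, SE; edgeR adjusted p = 0.781).

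C5, the source of the chemoattractant C5a and the first component of membrane attack, had the lowest log2 fold change of the 29 genes, a value that rested on 1 library. It stood at 80.0, 9.35 and 10.2 CPM in post-ovulatory and at 5.54, 7.04 and 5.52 CPM in early luteal replicates, so the stages did not overlap. Post-ovulatory replicate 1, with 1075 counts, was 8.56-fold above the lowest library of its stage. The log2 fold change was -2.46 ± 0.83 (SE), with an unadjusted p of 0.0173 and an adjusted p of 0.672 by edgeR's quasi-likelihood test. Without post-ovulatory replicate 1 it was -0.71 (edgeR, unadjusted p = 0.176). All 3 early luteal libraries stayed below the other 2 post-ovulatory libraries, by a small margin.

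C6 and C7 encode the next subunits of the membrane attack complex and sit close together, at chr16:26023646-26089518 and chr16:25846860-25902707. C6 stood at 7.45, 2.02 and 4.00 CPM in post-ovulatory and 3.48, 1.35 and 1.46 CPM in early luteal replicates. C7 stood at 38.6, 44.5 and 3.52 CPM and then at 25.6, 6.37 and 4.19 CPM. The 2 neighbours did not run in parallel, since C6 was second highest in post-ovulatory replicate 3, where C7 had its lowest value. C7 spanned 12.6-fold within the post-ovulatory stage, wider than its 2.39-fold difference between the stage means. Their log2 fold changes were -1.09 ± 0.70 and -1.24 ± 0.94 (SE), with adjusted p of 0.748 and 0.779 by edgeR. Stromal markers, 10 of 11 with a row, summed to 2582, 3063 and 1624 CPM in post-ovulatory and 1421, 1273 and 1224 CPM in early luteal replicates. Every early luteal sum thus lay below every post-ovulatory one. Taken singly this held for 5 of the 10 markers (9.57% of all genes), and the other 5 overlapped. In edgeR 9 of the 10 had a log2 fold change below 0 (51.8% of all genes), and 0 were called. An unadjusted p under 0.05 was reached by 4, all lower (3.54% of all genes). DESeq2 called 2 (1.02% of all genes), COL1A1 (adjusted p = 0.0071) and PI16 (adjusted p = 0.0314, on 7 to 80 counts per library). DPT, dermatopontin, went the other way and was highest in early luteal replicate 1 at 18.9 CPM. The part of stroma in these values was not tested.

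The other factors of the alternative pathway did not follow CFB. CFD, the protease that cuts factor B, stood at 65.7, 177.1 and 158 CPM in post-ovulatory and 161.9, 114 and 355 CPM in early luteal replicates. Its highest library was early luteal replicate 3 and its lowest post-ovulatory replicate 1. Leaving out that highest library gave a log2 fold change of 0.04 in place of 0.66. CFP, the properdin that stabilises the convertase, stood at 43.1, 33.3 and 56.9 CPM and then at 56.9, 41.6 and 49.7 CPM. Its libraries lay within 1.71-fold in the post-ovulatory and 1.37-fold in the early luteal stage, where CFB spanned 1.64-fold and 5.22-fold (log2 fold change 0.15 ± 0.29, SE; edgeR adjusted p = 0.913). The RefSeq span of CFD overlaps that of MED16, so its counts are uncertain where reads could be split.

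Receptors for the small cleavage products overlapped between the stages. C3AR1, the receptor of C3a, had 3 to 20 counts per library, or 0.199 to 2.03 CPM, and its lowest and its highest value both lay in the early luteal stage. C5AR1, the receptor of C5a on myeloid cells, stood at 6.63, 11.115 and 2.94 CPM in post-ovulatory and 12.045, 3.52 and 4.12 CPM in early luteal replicates. It was highest in the same 3 libraries as C1q, and rested on 26 to 187 counts. A stage difference was not detectable in either gene (log2 fold changes -0.16 ± 1.01 and -0.05 ± 0.69, SE; edgeR adjusted p = 0.977 and 0.989).

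CFI was the only one of the 4 complement regulators with a row whose mean was higher in early luteal tissue. CFI, the protease that inactivates C3b and C4b, stood at 298, 334 and 239 CPM in post-ovulatory and 450.1, 604.5 and 332 CPM in early luteal replicates. Early luteal replicate 3 lay just below post-ovulatory replicate 2, and the other early luteal libraries lay above all 3 post-ovulatory ones. The means were 290.2 ± 48.3 and 462 ± 137 CPM (SD, n = 3), with a log2 fold change of 0.67 ± 0.31 (SE). CFI missed the threshold, with an unadjusted p of 0.0582 and an adjusted p of 0.685 by edgeR. Its order differed from that of the complement components: early luteal replicate 2, where C1R and SERPING1 were lowest, held the highest CFI.

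SERPING1, the inhibitor of C1r and C1s, stood at 325, 677 and 421 CPM in post-ovulatory and 682, 177 and 275 CPM in early luteal replicates. It had the same highest and the same lowest library within each stage as CLU. CLU encodes clusterin, a secreted chaperone that blocks membrane attack and is abundant in reproductive tract fluids. It stood at 2559.9, 4206.5 and 3390.4 CPM and then at 4924, 2235 and 2491 CPM, and it took 47.1% to 62.3% of the counts of the 31 genes in each library. The stage means of CLU were 3386 ± 823 and 3217 ± 1484 CPM (SD, n = 3; log2 fold change -0.07 ± 0.40, SE). VTN, vitronectin, which binds the membrane attack complex, had 10 to 42 counts per library and stood at 1.86, 2.65 and 1.34 CPM and then at 0.773, 1.35 and 0.997 CPM. Early luteal replicate 2 lay just above post-ovulatory replicate 3, so the stages of VTN overlapped.

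F3, tissue factor, the membrane protein that starts coagulation, was among the 3 genes whose stages separated. F3 stood at 30.2, 30.3 and 26.5 CPM in post-ovulatory and at 67.4, 71.9 and 47.9 CPM in early luteal replicates. The post-ovulatory libraries lay within 1.14-fold of each other, and the lowest early luteal library was well above all of them. The means were 29.0 ± 2.14 and 62.4 ± 12.8 CPM (SD, n = 3), 2.15-fold higher in early luteal tissue. The log2 fold change was 1.11 ± 0.27 (SE), with an unadjusted p of 0.00292 and an adjusted p of 0.571 by edgeR's quasi-likelihood test. DESeq2 gave F3 an adjusted p of 0.0508. Leaving out each library in turn left the value between 0.99 and 1.25, with an unadjusted p under 0.05 in all 6 fits. Epithelial markers, 6 of 7 with a row, overlapped between the stages, with sums of 1614, 1405 and 2061 CPM in post-ovulatory and 2006, 2083 and 1530.3 CPM in early luteal replicates.

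PROS1 encodes protein S, the cofactor with which activated protein C and TFPI restrain clotting. PROS1 stood at 94.9, 87.0 and 67.0 CPM in post-ovulatory and at 174, 179 and 152 CPM in early luteal replicates. Each stage was tight, within 1.42-fold and 1.18-fold, and a wide gap lay between them. The means were 83.0 ± 14.4 and 169 ± 14.3 CPM (SD, n = 3), 2.03-fold higher in early luteal tissue. Its log2 fold change was 1.02 ± 0.25 (SE), with an unadjusted p of 0.00304 and an adjusted p of 0.571 by edgeR. It ran from 0.90 to 1.12 when each library was left out, with an unadjusted p under 0.05 in all 6 fits. An initiator of clotting and an anticoagulant cofactor thus both stood higher in every early luteal library, neither past the threshold of the main test.

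**Figure D3:**
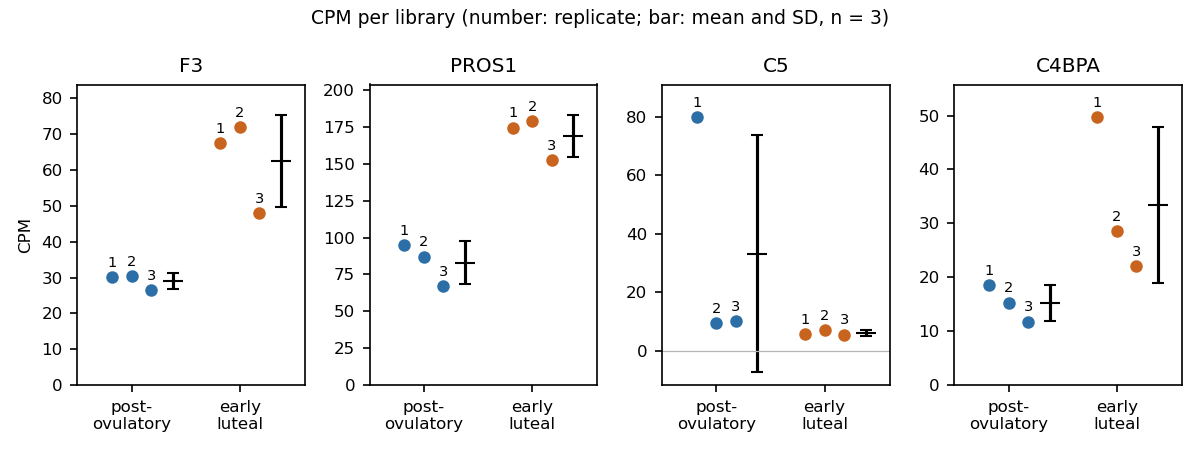
Points give CPM in each library, numbered by replicate, and bars the mean and SD of 3, with a separate axis for each gene. F3, PROS1 and C4BPA have every early luteal library above every post-ovulatory one, while the C5 difference rests on post-ovulatory replicate 1 at 80.0 CPM.

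The remaining clotting factors overlapped between the stages. F8, the cofactor of factor IXa made largely by endothelium, stood at 43.6, 56.0 and 40.6 CPM in post-ovulatory and 47.1, 26.7 and 44.5 CPM in early luteal replicates. Only early luteal replicate 2 lay outside the post-ovulatory range (log2 fold change -0.24 ± 0.31, SE; edgeR adjusted p = 0.861). F5, the cofactor of factor Xa, had 0 to 47 counts per library, and F13A1, the fibrin cross-linking subunit that macrophages also make, had 0 to 19. Both were at 0 in early luteal replicate 2, where the floor of 3 counts is 0.406 CPM. Their log2 fold changes were -0.43 ± 1.06 and -0.65 ± 1.11 (SE; edgeR adjusted p = 0.935 and 0.900), so no stage difference was detected. The RefSeq spans of F5, F8 and F13A1 overlap those of other genes or, for F13A1, a microRNA.

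Among the thrombin receptor and the anticoagulants other than PROS1, levels also overlapped. F2R, the thrombin receptor PAR1, stood at 3.57, 3.79 and 1.82 CPM in post-ovulatory and 3.48, 0.406 and 1.46 CPM in early luteal replicates. THBD, thrombomodulin, which turns thrombin towards protein C, stood at 3.05, 10.5 and 2.59 CPM and then at 5.86, 3.52 and 5.32 CPM. Post-ovulatory replicate 2 alone held the high THBD value, and without it the log2 fold change was 0.79 in place of -0.11. The summed level of the 12 endothelial markers, all with a row, was also highest in that library, as were 9 of the 12 singly, at 388.7, 642 and 471 CPM summed in post-ovulatory and 549.6, 581 and 426 CPM in early luteal replicates. EMCN, endomucin, was highest in early luteal replicate 2 (434 CPM), and KDR, the VEGF receptor, and CLDN5, a tight junction claudin, in early luteal replicate 1 (110.6 and 9.73 CPM). The part of endothelium was not tested.

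TFPI2 and TFPI are paralogues that inhibit proteases, and only TFPI2 passed the filter on low counts. TFPI2, which acts mainly on plasmin and matrix proteases, stood at 244, 365 and 223 CPM in post-ovulatory and 181, 313 and 206 CPM in early luteal replicates. Replicate 2 was the highest library of each stage, and the log2 fold change was -0.25 ± 0.32 (SE; edgeR adjusted p = 0.865). TFPI, which blocks tissue factor itself, had 2 to 14 counts per library and was not tested. SERPIND1, heparin cofactor II, had no count in any library, which allows a level of up to 0.0959 to 0.406 CPM per library. The RefSeq spans of TFPI2, TFPI and SERPIND1 overlap those of other genes, so their counts are uncertain where reads could be split. A2M, the broad protease trap alpha-2-macroglobulin, stood at 23.8, 38.3 and 28.2 CPM and then at 27.9, 26.4 and 13.6 CPM. Only early luteal replicate 3 lay clear of the post-ovulatory range (log2 fold change -0.41 ± 0.37, SE; edgeR adjusted p = 0.807).

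**Figure D4:**
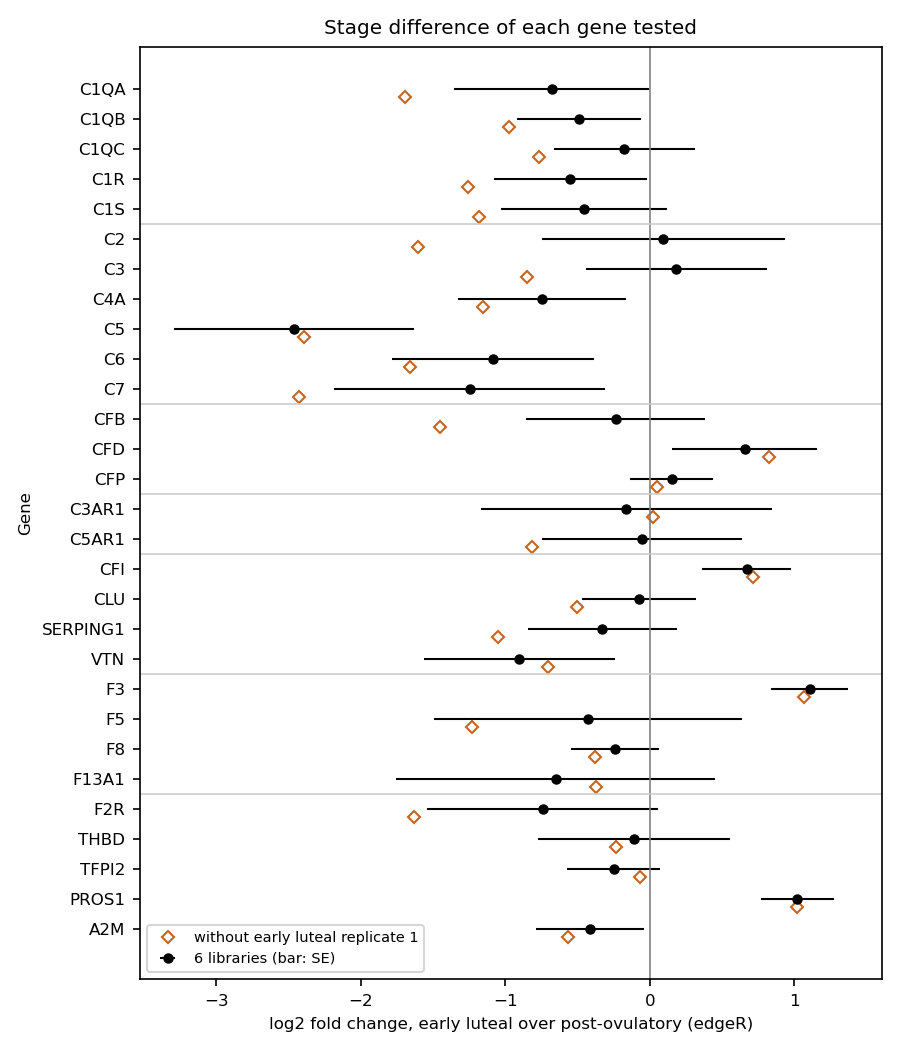
Points give the log2 fold change of each of the 29 tested genes, early luteal over post-ovulatory, with its SE, and open diamonds the same fit without early luteal replicate 1. The diamonds of C2, C3 and CFB lie at -1.60, -0.85 and -1.45, while those of F3 and PROS1 lie at 1.07 and 1.02, close to the 6-library values.

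Of the 6 omissions of a library, that of early luteal replicate 1 moved the count of genes furthest. In the remaining 5 libraries 11 of the 29 genes had an unadjusted p under 0.05 in edgeR (37.9%, against 11.5% of all genes), 9 of them lower and 2 higher in early luteal tissue. The lower ones were C1QA, C1QB, C1R, C1S, C2, C5, C7, CFB and SERPING1, and the higher ones F3 and PROS1. None passed over all genes (lowest adjusted p = 0.309, for CFB, with 0 of 18534 genes called). The omitted library was the highest of its stage in 20 of the 29 genes (34.2% of all genes). Leaving it out thus lowers the early luteal mean of those genes. As the genes share the same 5 libraries, the count is a description and not separate evidence from each gene. Without post-ovulatory replicate 3 the count was 5 (4.98% of all genes), with C4A and C7 added to the 3 genes named above. F3 and PROS1 were counted under each omission.

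The wider pathway was described by 74 further complement, clotting and fibrinolysis genes, of which 65 had a row and 43 were tested. None passed over all genes in edgeR or in DESeq2, and 3 (6.98%, near the 7.11% of all genes) had an unadjusted p under 0.05, all higher in early luteal tissue, of which C4BPA and PROCR are described. C4BPA, the alpha chain of a soluble inhibitor of the classical pathway, stood at 18.5, 15.3 and 11.8 CPM in post-ovulatory and 49.7, 28.6 and 22.0 CPM in early luteal replicates. Its stages did not overlap, with a log2 fold change of 1.14 ± 0.39 (SE; edgeR adjusted p = 0.677). PROCR, the endothelial receptor of protein C, stood at 1.27, 4.67 and 1.47 CPM and then at 2.58, 6.37 and 22.7 CPM. Its high value was that of early luteal replicate 3 alone, and its stages overlapped.

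Other genes of this list that the rule named overlapped between the stages. KNG1, the kininogen of the contact system, stood at 4.91 ± 1.63 against 12.98 ± 9.76 CPM (post-ovulatory against early luteal, SD, n = 3). FGL2, a membrane prothrombinase, stood at 121, 175 and 69.5 CPM in post-ovulatory and 90.8, 415 and 318 CPM in early luteal replicates, so that early luteal replicate 1 lay with the post-ovulatory libraries. PLAUR, the urokinase receptor, stood at 21.6 CPM in post-ovulatory replicate 2 and between 1.63 and 4.83 CPM in the other libraries. PLAT, the tissue plasminogen activator, stood at 362 ± 49.6 against 245 ± 109 CPM, and GAS6, a relative of protein S, at 417 ± 154 against 293 ± 203 CPM. ANXA2, which binds plasminogen on cell surfaces, stood at 721 ± 204.5 against 613 ± 101 CPM. ANXA5, which shields phospholipid from clotting factors, and LMAN1, the cargo receptor for factors V and VIII, had means of 284 ± 102 then 295 ± 113 CPM, and of 165 ± 47.0 then 145 ± 13.3 CPM, in the same order of stages. Of the later membrane attack genes C8A had no count, C8B was at or below 0.416 CPM, and C9 stood between 1.77 and 4.57 CPM.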

How the data were processed

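Paired reads came from stranded mRNA libraries (a KAPA kit, NextSeq2000), per the labels' protocols. The submitters' processing notes name STAR, Trim Galore, FastQC 0.11.4 and the build Sscrofa11.1. How reads were assigned to genes, whether strand was used in doing so and which annotation served is not given in the sources used here. RefSeq spans of 7 of the 31 genes overlap another gene, and such counts are uncertain. The authors deposited whole-number counts per Ensembl gene, with no normalization. A tab is missing from the header, and its names were read word by word and matched to the sample labels. The name of early luteal replicate 3 drops a letter of its label and matched no other sample.

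Symbols came from a table pairing Ensembl identifiers with symbols. CPM used TMM-scaled totals. Stages were compared by the quasi-likelihood test of edgeR 4.0.16 in R 4.3.3 (robust, after filterByExpr), two-sided and Benjamini-Hochberg adjusted over 17920 genes. SE was taken as the size of the log2 fold change divided by the root of F. P-values then measure only the spread between samples, and that spread may be technical. Floors cover counting error only. Every member with a row is named, and of the further pathway genes the 6 with the highest mean CPM and the 6 with the lowest p, apart from 1 gene that is not reported here. Genes named outside this rule (C8A, C8B, C9 and the cell type markers named singly) were chosen after their values were seen. The genes and lists were chosen with earlier results of these data known. Alternatives were DESeq2 1.42.0, limma 3.58.1 voom with and without sample quality weights, other scalings and filters, a replicate block, and each library left out. The scripts were tested on simulated data. CPM is not scaled for transcript length, so a higher CPM need not mean more transcripts of 1 gene than of another. Sums and shares over genes, and the choice of pathway genes by mean CPM, lean towards long and abundant transcripts. MYH11 made up 55.3% of the smooth muscle sum and EMCN 50.7% of the endothelial sum.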

Additional observations from a re-analysis of the deposited data

How the results depend on the processing

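With 3 libraries per stage and F5, F13A1, C3AR1, TFPI and VTN at few counts, only large differences could pass over 17920 genes. The count of all genes called was 0 in edgeR, 177 in DESeq2, 9 in limma voom with sample quality weights and 8 in edgeR with no filter. Among the 29 genes 0 were called in edgeR and 1, PROS1, in DESeq2. DESeq2 with its default filtering target of 0.1, an alternative chosen after seeing the data, also called 177 and 1. At an unadjusted p under 0.05 the 3 genes became 2 to 11 when each library was left out. The count was 2 without post-ovulatory replicate 1 (3.22% of all genes) and 5 without post-ovulatory replicate 3 (4.98% of all genes). It was 11 without early luteal replicate 1 (11.5% of all genes).

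Some log2 fold changes changed sign, not all of them near 0: C7 was -1.24, C4A -0.75 and F13A1 -0.65 in edgeR. In limma voom those were C2 at -0.14, C3 at -0.11, C5AR1 at 0.24 and THBD at 0.42. With sample quality weights they were C1QC at 0.12, C2 at -0.20, C3 at -0.047, C4A at 0.10, C7 at 0.15, C5AR1 at 0.51, F8 at 0.0015, F13A1 at 0.32 and THBD at 0.70. Leaving out each library gave ranges across 0 for C1QC (-0.77 to 0.13), C1S (-1.18 to 0.17), C2 (-1.60 to 0.70), C3 (-0.85 to 0.54), CFB (-1.45 to 0.13) and CFP (-0.027 to 0.37). It did so too for C3AR1 (-1.12 to 0.33), C5AR1 (-0.81 to 0.45), CLU (-0.50 to 0.13), SERPING1 (-1.05 to 0.013), F5 (-1.23 to 0.12) and THBD (-0.44 to 0.79). The cause was not tested. The median over the 29 genes, -0.25, was -0.36 in limma voom. F3, PROS1, CFI and CFD, higher in early luteal tissue, kept their sign in every alternative run. So did C5, C1QA, C1QB, C1R, C6, VTN, F2R, TFPI2 and A2M, all lower in early luteal tissue. Of these, TFPI2 came to -0.0009 without post-ovulatory replicate 2.

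The samples share only a replicate number: deviations of same-numbered libraries correlated at 0.05, -0.08 and 0.13. Deviations of differently numbered libraries correlated between -0.16 and 0.06. With the replicate block edgeR called 0 genes, counted 2 of the 29, F3 and PROS1, at an unadjusted p under 0.05 (5.82% of all genes), and gave C2 -0.50, C3 -0.082 and THBD 0.19, each with the sign changed. The median was then -0.46.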
